A study of Mus musculus with 2 samples.

Results

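EC 3 is the smallest endothelial population of a single-cell survey of the healthy mouse aorta. Its members are the cells to which the authors gave the name EC 3, 94 of 5451 cells. Summed over these cells, marker genes of lymphatic endothelium were high, but the cells did not carry them evenly. The chemokine gene Ccl21a had at least 2 UMIs (captured transcripts) in 47 of the 94 cells, and 14 cells had all 5 marker genes of the label. Whole aortas, freed of perivascular fat, were dissociated with enzymes and all cells were taken without sorting for a type. The mice were wild-type females of the C57/BL6 strain on a chow diet, 12 weeks of age. There were 2 droplet libraries of 1 group, so no condition is compared, and which of the labelled aortas each library holds is not given in the sources used here. EC 3 is set against the other 9 populations named by the authors, which are the endothelial populations EC 1 (425 cells) and EC 2 (229 cells), VSMC (2159), Fibro 1 (1147), Fibro 2 (634), Mono 1 (443), Macro (167), Mono 2 (109) and Neuron (44). The names are the authors' and were not chosen anew.

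Lymphatic endothelium lines the vessels that drain fluid and immune cells from tissues, and in large arteries such vessels run in the adventitia. The transcription factor Prox1 installs and keeps the lymphatic fate, which arises from venous endothelium that expresses Nr2f2. Its cells respond to VEGF-C through the receptor Flt4 (VEGFR3) with the co-receptor Nrp2. Initial lymphatic capillaries take up fluid and dendritic cells and display the hyaluronan receptor Lyve1 and the chemokine Ccl21. Collecting vessels downstream carry valves, whose cells use Foxc2, Cldn11 and the connexin Gja4.

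Library 1 gave 34 EC 3 cells of 2260, or 1.5% (exact Clopper-Pearson 95% interval 1.04 to 2.1), and library 2 gave 60 of 3191, or 1.88% (1.44 to 2.41). Within the endothelium the share was 14.3% (10.1 to 19.4) of 238 cells in library 1 and 11.8% (9.10 to 14.9) of 510 in library 2. The intervals, like all intervals below, cover counting error alone. The EC 3 sums held 128822 and 324431 UMIs (molecular barcodes that tell captured transcripts apart), with a median of 2976 and 4670 UMIs per cell. Cells of EC 1 had medians of 3286.5 and 4710 UMIs and cells of EC 2 medians of 2394 and 2790. Of 12 barcodes that occur in both libraries, 1 belonged to an EC 3 cell, and in no case were both cells EC 3. The endothelial markers Pecam1, Cdh5, Tek, Tie1, Esam, Cldn5 and Egfl7 together gave at least 2 UMIs in 94 of 94 EC 3 cells.

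The genes on which the label rests are shown first by the sequence before their transcription start, for Prox1, the fate-setting factor, and for Mmrn1 and Ccl21a, which had the largest margins over their nearest population among the 5 marker genes. Each is the 250 bases before the start in RefSeq on GRCm38.p6, on the coding strand. They are chr6:60944067-60944316 (+) for Mmrn1, chr1:190169516-190169765 (-) for the second annotated start of Prox1, and chr4:42773992-42774241 (-) for Ccl21a. Capitals mark matches on either strand to a SOX core (ACAAT) or a FOX core (TAAACA), short motifs of factor families with members active in lymphatic endothelium.
Mmrn1: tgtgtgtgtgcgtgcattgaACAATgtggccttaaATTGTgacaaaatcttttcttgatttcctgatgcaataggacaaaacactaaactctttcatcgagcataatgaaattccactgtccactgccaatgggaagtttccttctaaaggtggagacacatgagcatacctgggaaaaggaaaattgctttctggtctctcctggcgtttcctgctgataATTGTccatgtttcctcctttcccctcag
Prox1: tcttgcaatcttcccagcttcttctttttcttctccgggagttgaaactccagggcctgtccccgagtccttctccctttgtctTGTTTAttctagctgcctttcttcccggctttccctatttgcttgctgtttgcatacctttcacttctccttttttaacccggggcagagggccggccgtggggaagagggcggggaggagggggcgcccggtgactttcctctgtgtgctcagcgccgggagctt
Ccl21a: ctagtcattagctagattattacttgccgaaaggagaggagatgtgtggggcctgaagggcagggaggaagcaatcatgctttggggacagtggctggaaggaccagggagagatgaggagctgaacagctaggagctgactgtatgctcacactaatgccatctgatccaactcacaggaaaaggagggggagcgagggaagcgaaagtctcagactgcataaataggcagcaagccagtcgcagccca
Mmrn1 held 3 SOX cores, the second start of Prox1 held 1 FOX core, and the Ccl21a window held neither. The windows before the first annotated start of Prox1 (chr1:190170828-190171077) and before Lrg1 (chr17:56121947-56122196) held none of the motifs. An ETS core (CCGGAA) and a nuclear receptor core (AGGTCA) were searched as well and matched none of the windows printed. Of 32851 promoter windows of this length, 27.7% held the SOX core, 12.0% the FOX core, 12.0% the ETS core and 14.0% the nuclear receptor core, so these matches are a description and not binding sites.

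In EC 3 the 5 marker genes stood far above EC 1 and EC 2, and all but Lyve1 above every other population. Levels are given as CPM, the UMIs of a gene scaled by the total UMIs of the population in that library to a common total. Prox1 reached 132 and 179 CPM in libraries 1 and 2 of EC 3, against 0 UMIs in EC 1 and in EC 2. Its level in the other 7 populations was at most 4.00 CPM. Against the floor of 3 counts over the population, Prox1 was at least 116-fold higher in EC 3 than in EC 1 and at least 42.2-fold higher than in EC 2.

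Ccl21a, the chemokine that draws dendritic cells and T cells with the receptor CCR7, reached 24716 and 9605 CPM in EC 3, against 5.92 to 106 CPM in the other populations. Mmrn1, a secreted multimerin, reached 2189 and 980 CPM in EC 3 and at most 10.6 CPM elsewhere. Lyve1 reached 2709 and 1174 CPM in EC 3, against 1238 and 1334 CPM in Mono 1 and at most 20.2 CPM in the rest. Mono 1 thus carried Lyve1 within the range of the EC 3 libraries. Lrg1, a secreted glycoprotein that modifies TGF beta signalling, reached 1063 and 2121 CPM in EC 3, against 53.3 and 85.6 CPM in EC 2 and at most 17.0 CPM elsewhere. Ccl21a, Mmrn1 and Lyve1 were higher in library 1 of EC 3 than in library 2, and Lrg1 and Prox1 were higher in library 2.

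**Figure D1:**
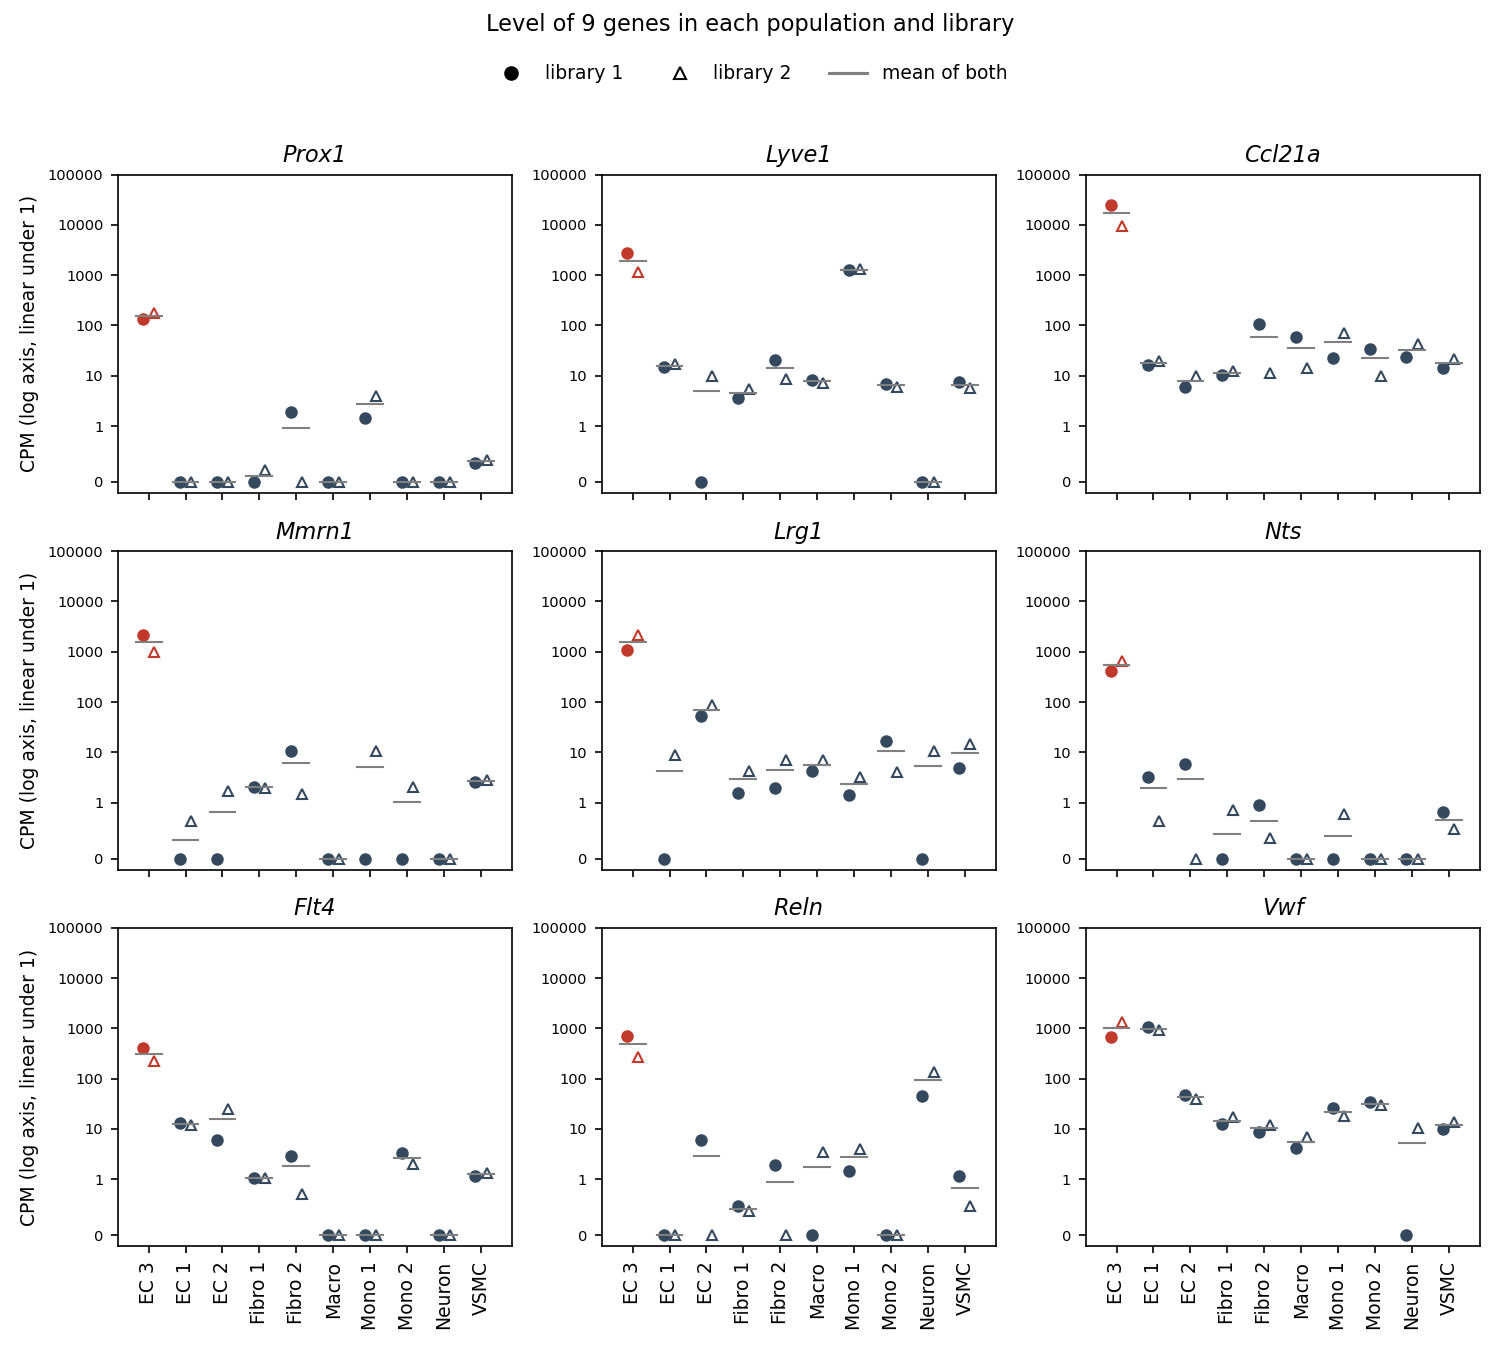
Levels of 9 genes (CPM, on an axis that is linear near 0 and logarithmic above) in EC 3 and the other 9 populations. Each point is 1 library and each line the mean of both; Ccl21a lies at 24716 and 9605 CPM in EC 3 and at 106 CPM or less elsewhere, Lyve1 is as high in Mono 1, and Vwf is as high in EC 1.

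Fold changes are log2 values from 1 quasi-likelihood fit in edgeR. Its input was the summed UMIs of each population in each library, and library entered as a term. Standard errors, given after ±, were derived from the F statistic. A called gene has a Benjamini-Hochberg adjusted p under 0.05 over all 10488 genes tested. The populations were clustered by the authors on these same cells, so a call is a cut for listing genes and not a test that EC 3 exists. The spread behind it is what still differs between the 2 libraries after the library term, pooled over all populations. Against the mean of the other 9 populations, the edgeR folds were 10.17 ± 0.26 for Mmrn1 (adjusted p = 1.08e-22), 9.38 ± 0.58 for Prox1 (8.69e-13), 9.14 ± 0.24 for Ccl21a (1.15e-23), 7.65 ± 0.15 for Lrg1 (7.5e-27) and 7.42 ± 0.20 for Lyve1 (1.32e-22). For genes with 0 UMIs in several populations, such as Prox1, this mean depends on the prior count of the fit and is no limit. Lyve1 did not differ beyond its error from Mono 1 (0.10 ± 0.22, edgeR adjusted p = 0.79) and was called higher than the other 8 populations. With DESeq2 the call of Prox1 was lost, at an adjusted p of 0.0828 against the mean of the others, 0.192 against EC 1 and 0.312 against EC 2; in all other alternatives with a test it was called, and the lowest adjusted p were 8.40e-63, 4.97e-40 and 1.88e-16. The direction of Prox1 stayed the same in each.

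The Ccl21a count carries an uncertainty of its own, because mice have near-identical copies of the gene. The annotated transcript of Gm21541 (GENCODE M21) matches that of Ccl21a at 864 of 870 bases (99.3%), and that of Gm13304 at 832 of 837 (99.4%). Gm21541 had 295 and 95.6 CPM in EC 3, against at most 6.72 CPM elsewhere, and Gm13304 had 4 UMIs in EC 3. Ccl21b and Gm10591 match at 400 of 402 bases each and were not analysed here. How reads were divided among the copies is not given in the sources used here.

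Cell by cell, EC 3 did not carry its markers evenly. Of the 94 cells, 47 had at least 2 UMIs of Ccl21a (from 3 up to 422), 4 had 1 UMI and 43 had 0. Vwf, the clotting factor stored by blood vascular endothelium, had at least 2 UMIs in 33 cells. These sets did not overlap: 0 of the 47 cells with Ccl21a reached 2 UMIs of Vwf, which allows a share of up to 6.38% (3 counts of the total, not an exact interval), and no Vwf cell had more than 1 UMI of Ccl21a. The remaining 14 cells had neither gene at 2 UMIs. The sets were drawn after these values were seen, so what follows is a description with no test.

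Ccl21a cells made up 23 of 34 EC 3 cells in library 1, or 67.6% (49.5 to 82.6), and 24 of 60 in library 2, or 40% (27.6 to 53.5). Vwf cells made up 7 of 34, or 20.6% (8.70 to 37.9), in library 1 and 26 of 60, or 43.3% (30.6 to 56.8), in library 2. The intervals of the libraries overlapped, which does not show that the shares were alike, and their difference was not tested. Library 1, with the larger share of Ccl21a cells, was the one with more Ccl21a, Mmrn1 and Lyve1, and the part of this share in those levels was not tested. Cells with neither gene were 4 of 34 in library 1 and 10 of 60 in library 2. Median UMIs per cell were 3682 in Ccl21a cells, 6518 in Vwf cells and 4474 in the others, so the Ccl21a cells were the shallowest by median.

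Among the 47 Ccl21a cells, Mmrn1 was seen in 47, Lyve1 in 45, Reln in 43 and Flt4 in 40. Among the 33 Vwf cells, Mmrn1 was seen in 2, Lyve1 in 11, Reln in 0 and Flt4 in 2, while Lrg1 and Pecam1 were seen in all 33. Prox1 was seen in 20 Ccl21a cells, 10 Vwf cells and 9 of the other 14. Summed over each set, Lyve1 had 3895 CPM in Ccl21a cells, 106 CPM in Vwf cells and 120 CPM in the others. Prox1 had 161 CPM in Ccl21a cells, 87.1 CPM in Vwf cells and 419 CPM in the others. Lrg1 had 779 CPM in Ccl21a cells, 2554 CPM in Vwf cells and 2351 CPM in the others, and so was present in all 3 sets. Of the label's markers, Ccl21a, Mmrn1 and Lyve1 were thus concentrated in 47 of the 94 cells, and Vwf in another 33. Prox1 and Lrg1 were not concentrated in this way: Prox1 had at least 2 UMIs in 4 of the Vwf cells, and its 87.1 CPM there stand against 0 UMIs in EC 1 and in EC 2. These 4 cells were unlike. In those with 2 and 5 UMIs of Prox1, Vwf was at the cut of 2 UMIs, and Flt4 had 4 and 3 UMIs and Mmrn1 1 and 3. In those with 3 and 2 UMIs of Prox1, Vwf had 13 and 26 UMIs, and Flt4 and Mmrn1 had 0. The 5 markers of the label thus did not run together over all 94 cells, and the population is called EC 3 throughout.

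Detection was limited by depth for the weaker genes. Prox1 had a UMI in 39 of 94 EC 3 cells (41.5%), against 0.232% of VSMC, which should lack it, with median depths of 4139 and 6025 UMIs. After thinning each cell to 1300 UMIs the shares were 17.0% in EC 3 and 0.0463% in VSMC. Ccl21a had a UMI in 54.3% of EC 3 cells and 7.97% of VSMC, and 1.99% of VSMC after thinning. Vwf had a UMI in 41.5% of EC 3 cells and 6.99% of VSMC. A single UMI of either gene therefore also occurs in unrelated cells, and 2 UMIs were asked for above. Of the 5 marker genes, 14 EC 3 cells had all 5, 28 had 4, 19 had 3, 14 had 2, 18 had 1 and 1 cell had 0.

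**Figure D2:**
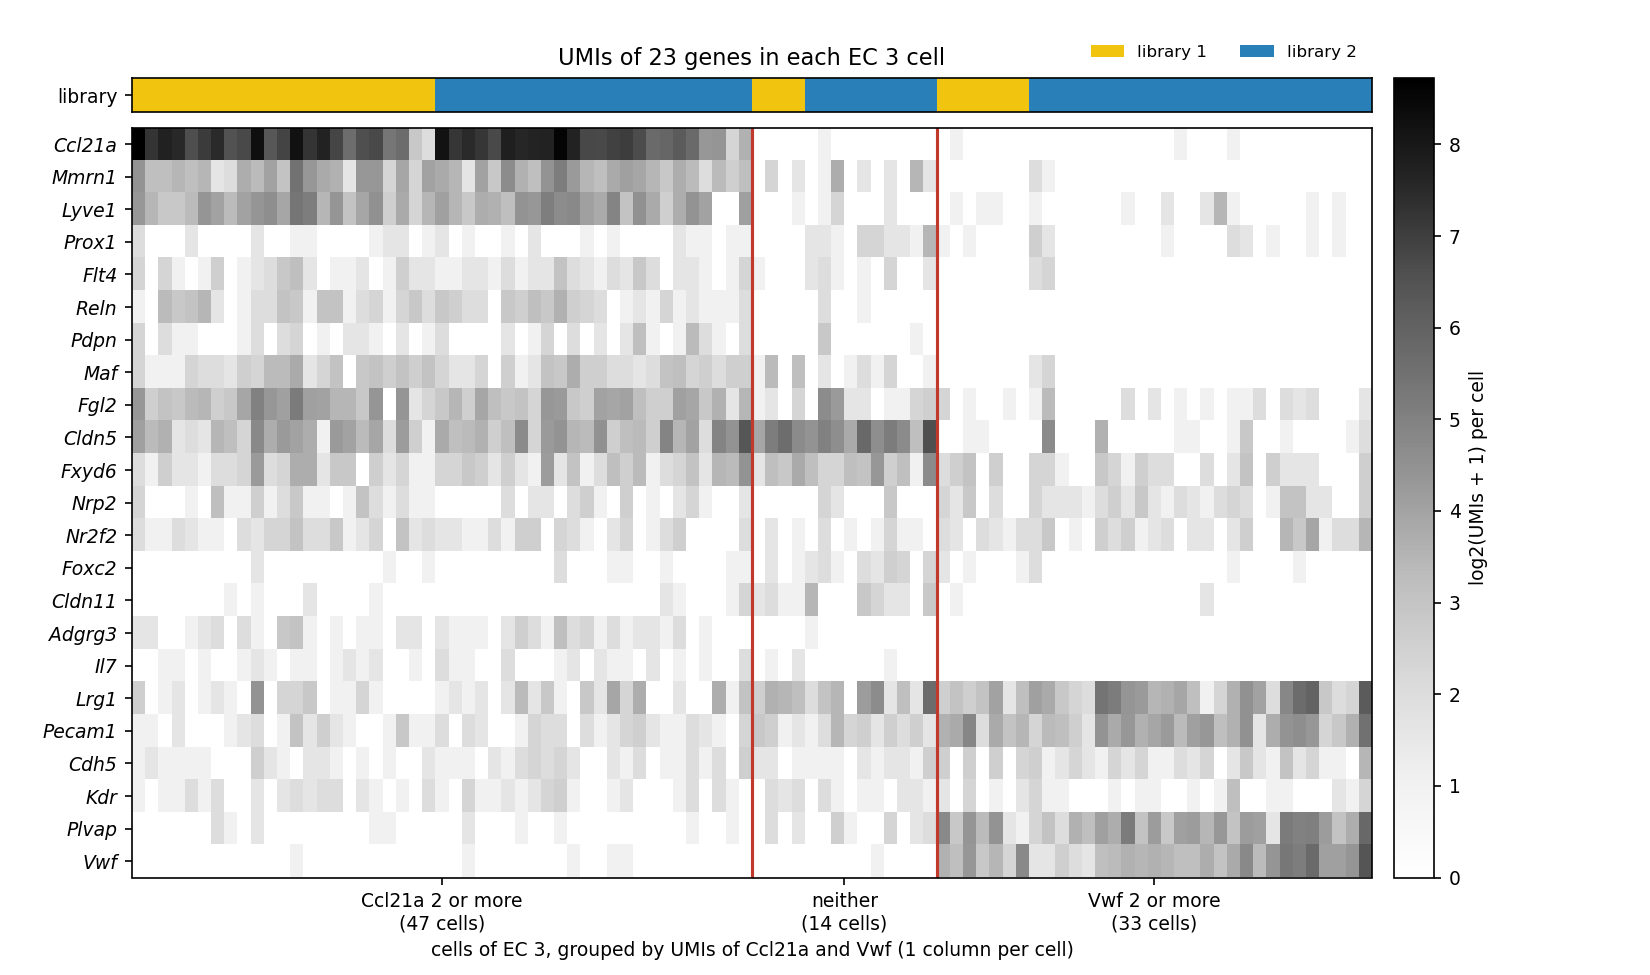
UMIs of 23 genes (log2 of UMIs + 1, colour) in each of the 94 EC 3 cells, 1 column per cell, grouped as cells with at least 2 UMIs of Ccl21a (47), cells with neither gene (14) and cells with at least 2 UMIs of Vwf (33), with the library of each cell in the strip on top. Mmrn1, Lyve1, Reln and Flt4 fill the Ccl21a group, Vwf and Plvap fill the Vwf group, and Lrg1 spans all groups.

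The 14 cells with neither gene had more of 3 valve genes, which were picked after their values were seen from the 14 genes of the collector and valve list. Foxc2, the transcription factor required for lymphatic valves, had 404 CPM in these cells, against 66.8 CPM in Ccl21a cells and 43.5 CPM in Vwf cells. Cldn11, a tight junction protein found at valves, had 554 CPM in them, 72.3 CPM in Ccl21a cells and 14.5 CPM in Vwf cells. Gja4, connexin 37, had 719 CPM in them, 100 CPM in Ccl21a cells and 19.3 CPM in Vwf cells. At least 2 of these 3 genes had a UMI in 10 of the 14 cells, in 7 of 47 Ccl21a cells and in 1 of 33 Vwf cells, and all 3 genes in 7, 2 and 0 cells. A UMI of Foxc2 was also seen in 17.5% of VSMC, against 26.6% of EC 3 cells, while Cldn11 was seen in 0.0926% of VSMC and 21.3% of EC 3 cells. On few UMIs, 3 other genes of the list went the same way. Celsr1 had 74.9 CPM in the 14 cells (5 UMIs), 5.56 CPM in Ccl21a cells and 4.84 CPM in Vwf cells. Vangl2 had 89.8 CPM (6 UMIs), 16.7 and 19.3 CPM, and Gata2 255 CPM (17 UMIs), 38.9 and 140 CPM, in the same order. The remaining genes of the list differed less or the other way. Adgrg3 had 1 UMI in the 14 cells and 80 UMIs in Ccl21a cells. Gja1 had 74.9 CPM in the 14 cells and 267 CPM in Ccl21a cells, Nfatc1 had 59.9 and 134 CPM in the same order, and Itga9 had 180 and 139 CPM. The same 14 cells had 1782 CPM of Adm, the lymphangiogenic peptide adrenomedullin, against 50.1 CPM in Ccl21a cells and 9.67 CPM in Vwf cells, and 1722 CPM of Nts, the peptide neurotensin, against 673 and 164 CPM. Cldn5, the main claudin of endothelial tight junctions, had 6752 CPM in them, 3399 CPM in Ccl21a cells and 252 CPM in Vwf cells. Of these 14 cells 10 came from library 2, which also held all 9 of them with a UMI of Prox1, and the pattern rests on few cells.

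To compare groups of EC 3 cells on UMIs that did not make the groups, the UMIs of every cell were divided at random into equal parts. All cells were clustered on 1 part, and levels were read from the other. The 94 EC 3 cells fell into 2 clusters of their own, with 58 and 30 cells, and 6 cells lay in clusters of other populations. The first cluster (59 cells, 26 and 33 by library) held 47 of the 47 Ccl21a cells, 10 of the 14 cells with neither gene and 1 Vwf cell. The second cluster (32 cells, 6 and 26 by library) held 29 of the 33 Vwf cells and none of the Ccl21a cells. The Ccl21a and Vwf sets were cut on all UMIs, those used for clustering included, so this overlap is a description and no independent support. Of 8178 genes tested in the other part of the UMIs, 321 (3.93%) were called between the clusters, 153 (1.87%) higher in the first and 168 (2.05%) higher in the second. The second cluster has 6 cells in library 1, which limits the precision of these values.

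In the first cluster the genes of initial lymphatic capillaries stood out. Ccl21a had 36444 and 20754 CPM in the first cluster, against 55.1 and 23.7 CPM in the second, which is 3 UMIs in all. Lyve1 had 3972 and 2309 CPM in the first, against 110 and 119 CPM in the second (log2 fold 4.63 ± 0.31). Mmrn1 had 309 UMIs in the first and 0 in the second, Maf, a transcription factor, 134 and 0, Pard6g, a cell polarity protein, 110 and 0, Reln, an extracellular guidance glycoprotein, 82 and 0, and Pdpn, the mucin-like protein podoplanin, 43 and 0. Flt4 had 57 UMIs in the first and 2 in the second, and Lcn2, an iron-binding lipocalin, 93 and 1. Cldn5 was higher in the first by 4.50 ± 0.33 (3904 and 4552 CPM in the first, 55.1 and 237 CPM in the second) and Timp3, a metalloproteinase inhibitor, by 1.75 ± 0.28. Of the 16 genes tested from the lymphatic identity list 10 were higher in the first cluster and 0 in the second (median fold 3.74, against 0.02 over all genes), and of 6 initial capillary genes 5 and 0. The 2 lists share Lyve1, Ccl21a, Reln and Pdpn, so these counts are not separate.

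In the second cluster genes known from blood vascular endothelium, several of them venous, were higher. Vwf had 0 and 26.2 CPM in the first cluster and 2647 and 2552 CPM in the second. Plvap, the diaphragm protein of fenestrae and caveolae, had 90.3 and 171 CPM in the first and 2592 and 2386 CPM in the second (-4.08 ± 0.30). Fabp4, a fatty acid carrier, had 90.3 and 945 CPM in the first and 11138 and 8558 CPM in the second (-4.02 ± 0.26). Procr, the endothelial protein C receptor, had 0 UMIs in the first and 59 in the second, and Jam2, a junctional adhesion molecule, had 0 and 35. The VEGF receptor Flt1 had 2 UMIs in the first and 58 in the second. The water channel Aqp1 (-3.01 ± 0.29) and the matrix protein Mgp (-2.26 ± 0.23) were also higher in the second. Of 14 venous genes 0 were higher in the first cluster and 7 in the second, and of 8 genes of MHC class II 0 and 5, among them H2-Ab1 (-3.47 ± 0.50). Other vessel lists also had genes higher in the second cluster. Of 18 arterial genes 1 was higher in the first and 3 in the second, of 11 capillary genes 2 and 2, and of 20 pan-endothelial genes 1 and 7. The venous list holds Lrg1 and shares Vwf and Emcn with the pan-endothelial list, so these counts are not separate. Of 17 immediate early genes 0 were higher in the first and 5 in the second.

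Prox1, Nr2f2 and Lrg1 were not called higher in the first cluster. Prox1 had 226 and 249 CPM in the first cluster and 0 and 142 CPM in the second, and was not called (1.24 ± 0.68, edgeR adjusted p = 0.452). With 75 UMIs of Prox1 in EC 3 before the division, depth limits such a call, and a difference is not excluded. Nr2f2 had 564 and 459 CPM in the first and 386 and 534 CPM in the second and was not called (-0.01 ± 0.32). Lrg1 was called higher in the second (-0.87 ± 0.20), with 925 and 1325 CPM in the first and 1323 and 2718 CPM in the second. Against EC 1, the first cluster had 385 genes called higher and 614 lower, and the second 144 higher and 234 lower; against EC 2 the first had 324 and 413 and the second 212 and 345. Counts of calls also depend on the number of cells and are not a distance between populations.

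**Figure D3:**
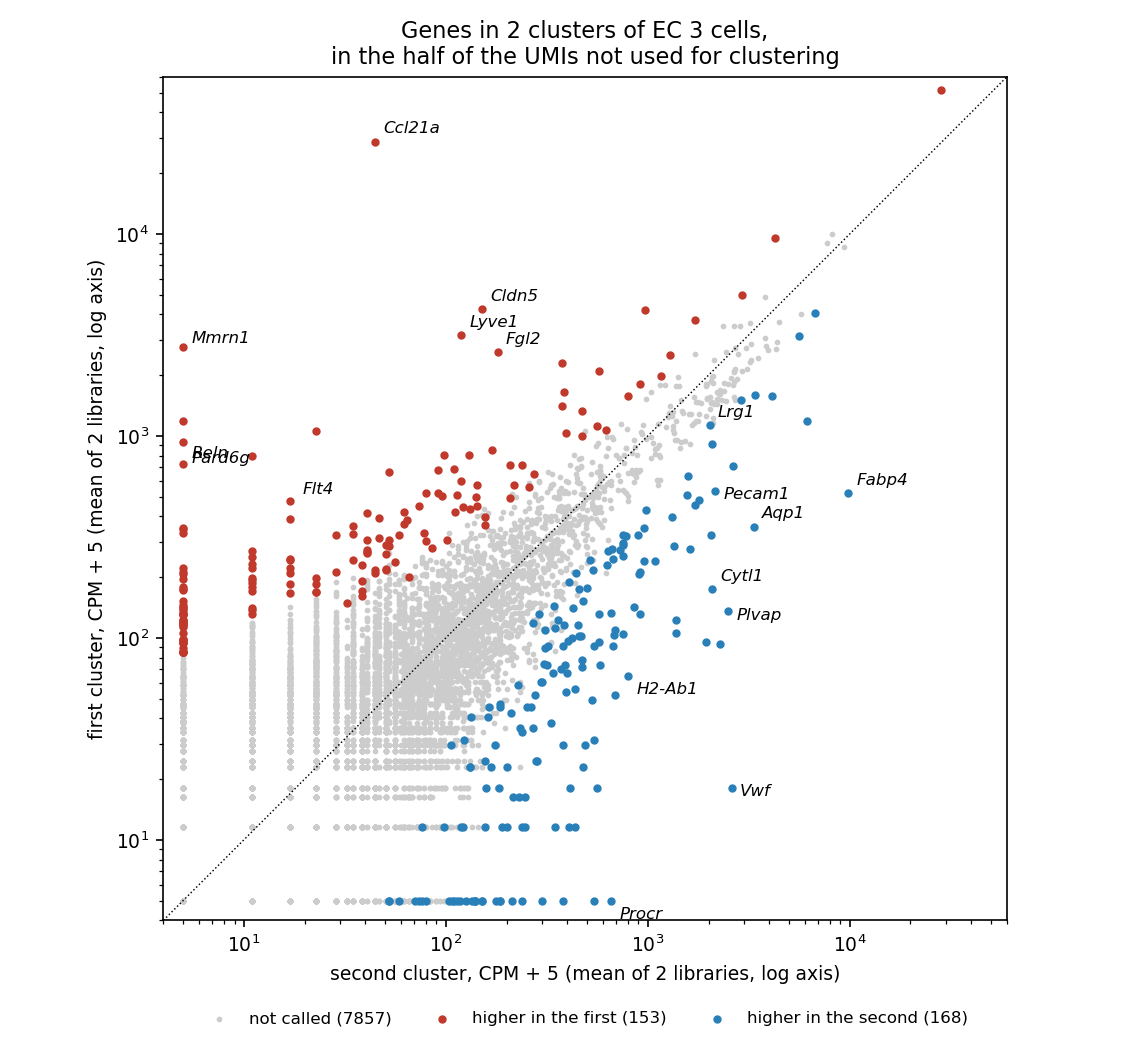
Levels (CPM + 5, logarithmic axes) of 8178 genes in the first EC 3 cluster (vertical) and the second (horizontal), read from the part of the UMIs that was not used for clustering. The 153 genes called higher in the first cluster are red, the 168 called higher in the second blue and the rest grey; Ccl21a, Mmrn1 and Lyve1 lie at the upper left and Vwf, Plvap and Fabp4 at the lower right.

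Over the whole transcriptome, 1556 of 10488 genes (14.8%) were called between EC 3 and the mean of the other populations, 1209 (11.5%) higher and 347 (3.31%) lower. Of the 1556, 1518 had the direction of the fit in both libraries. The single populations with fewest calls against EC 3 were Neuron with 1157, EC 1 with 1218 (11.6% of genes) and EC 2 with 1226 (11.7%), and the most came from Mono 2 with 3022. Such counts also depend on depth, and Neuron has 44 cells. Called higher than each of the other 9 populations were 79 genes (0.753%). For 24 of them the nearest population was EC 2 and for 20 it was EC 1.

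The gene with the largest margin over its nearest population was Nts, with 411 and 669 CPM in EC 3, 3.30 and 0.668 CPM in EC 1 and at most 5.92 CPM elsewhere . Against EC 1, the nearest, Nts had 270 UMIs in EC 3 and 3 in EC 1, a ratio of 417 with a counting interval of 141 to 2037. Next came Ccl21a (smallest log2 fold 7.81, against Mono 1), Mmrn1 (7.33, Mono 1), Pard6g and Clca3a1, a secreted protein of the chloride channel regulator family (both nearest to Neuron), and Prox1 (5.34, Mono 1). Pard6g had 706 and 419 CPM in EC 3 and at most 21.4 CPM elsewhere. Clca3a1 had 256 and 247 CPM in EC 3 and at most 10.7 CPM elsewhere. Adgrg3, an adhesion G protein-coupled receptor, had 272 and 142 CPM in EC 3 and at most 11.8 CPM elsewhere (4.65, EC 2). Dtx1, a Notch pathway ubiquitin ligase, had 194 and 145 CPM in EC 3 and at most 6.46 CPM elsewhere (4.46, Fibro 1). Lrg1 (4.54, EC 2), Wipf3 (3.72, EC 1), Flt4 (3.68, EC 2) and Klhl4 (3.31, EC 1) followed.

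The naming rule also took Gm21541 (4.68), Slc45a3 (2.78), the kinase Bcr (2.53), Plvap (2.46), the hormone stanniocalcin Stc1 (2.34), Lbp, which binds bacterial lipopolysaccharide (2.20), Fam174b (2.17) and Reln (2.12, against Neuron). These genes did not lie in the same EC 3 cells. Plvap lay mostly in the Vwf cells (2448 CPM, against 77.9 CPM in Ccl21a cells). Gm21541 and Reln had 69 and 174 UMIs in the Ccl21a cells and 0 in the Vwf cells. Lbp had 458 and 635 CPM in EC 3, against 79.7 and 123 CPM in Fibro 2 and at most 37.0 CPM elsewhere. Reln had 714 and 265 CPM in EC 3, against 46.2 and 139 CPM in Neuron and at most 5.92 CPM elsewhere. Htr2b, a serotonin receptor, was called above every population with 39 UMIs in EC 3 and 1 UMI in each of 2 fibroblast sums. Il7, the lymphocyte survival cytokine, had 147 and 70.9 CPM in EC 3 and at most 4.95 CPM elsewhere. Ptn, the growth factor pleiotrophin, was shared with Neuron (241 and 878 CPM in EC 3, 762 and 598 CPM in Neuron).

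The genes with the largest negative folds against the mean of the others all had 0 UMIs in EC 3, among them Rnd3, Nes, Abcb1b, Cercam, Fcgr2b, Rassf4, Cox7a1, Emilin2 and Lyz1. Their calls were lost in the thinned cells and in the divided UMIs, Rnd3 also without doublets, Cox7a1 also with DESeq2, and Cox7a1 and Lyz1 also without the library block.

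Against EC 1, 1218 genes were called, 592 (5.64%) higher in EC 3 and 626 (5.97%) lower. Of these 1207 had the same direction in both libraries. The genes highest over EC 1 were Reln (178 UMIs in EC 3 and 0 in EC 1, at least 275-fold), Mmrn1 (600 and 1 UMI, a ratio of 2783 with a counting interval of 498 to 1.10e+05), Prox1 (75 and 0) and Cldn11 (53 and 0, at least 82.0-fold). Nrp2 had 497 and 348 CPM in EC 3, against 1.65 and 0.668 CPM in EC 1, and Lcn2 had 668 and 395 CPM in EC 3, against 3.30 and 1.34 CPM in EC 1. Kdr (VEGFR2) was also higher, with 380 and 222 CPM in EC 3 and 6.59 and 2.01 CPM in EC 1 (6.12 ± 0.40). Ednrb, the endothelin B receptor, had 217 and 142 CPM in EC 3 and 0 and 1.34 CPM in EC 1. With DESeq2 the call of Cldn11 was lost against EC 1 (DESeq2 adjusted p = 0.278) and EC 2 (0.404), and in the other alternatives its adjusted p was as low as 3.01e-31 and 5.10e-12.

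Genes at 0 UMIs in EC 3 made up the 10 named genes lower than EC 1. Adh7, an alcohol and retinol dehydrogenase, had 0 UMIs in EC 3 and 1071 in EC 1, at least 77.0-fold lower in EC 3. The gene 1500015O10Rik was at least 33.3-fold lower, the transcription factor Isl1 at least 11.4-fold, the basement membrane collagen Col4a3 at least 10.6-fold, the Wnt inhibitor Frzb at least 8.62-fold, Sdcbp2 and Atp2b2 at least 7.54-fold each, the arterial connexin Gja5 at least 6.68-fold, and Sema3g and Aldh3a1 at least 6.32-fold each. Clu, the chaperone clusterin, had 311 and 727 CPM in EC 3, against 4788 and 5358 CPM in EC 1 (-3.38 ± 0.26). Vcam1, a leukocyte adhesion molecule, had 116 and 55.5 CPM in EC 3, against 1373 and 961 CPM in EC 1 (-4.08 ± 0.34). Sema3g lost its call in the divided UMIs (edgeR adjusted p = 0.0607, lowest in the other alternatives 3.59e-07).

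Against EC 2, 1226 genes were called, 647 (6.17%) higher in EC 3 and 579 (5.52%) lower, and 1202 of them had the same direction in both libraries. Ptn had 316 UMIs in EC 3 and 0 in EC 2 (at least 178-fold higher). Slc45a3 was at least 30.4-fold and Cldn11 at least 29.8-fold higher. Gpm6a, a membrane glycoprotein, had 357 and 348 CPM in EC 3, against 0 and 1.68 CPM in EC 2. Reln, Mmrn1, Nts, Pard6g, Prox1 and Ccl21a were the other genes with the largest positive folds.

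The 10 named genes lower than EC 2 all had 0 UMIs in EC 3. They were Gm12002 (at least 50.6-fold), Ccdc85a (46.4-fold), the interferon-induced chemokine Cxcl9 (33.8-fold), Slc26a10 (22.3-fold), Cox7a1, a mitochondrial oxidase subunit (21.9-fold), Art3 (21.7-fold), the drug transporter Abcb1b (18.0-fold), Tmem182 (17.0-fold) and the apelin receptor Aplnr (16.2-fold), each a lower limit, and Sema7a, with 81 UMIs in EC 2. With DESeq2, Cxcl9 (adjusted p = 0.137) and Tmem182 (0.636) lost their calls, and their lowest adjusted p in the other alternatives were 1.40e-22 and 4.30e-11. Car4, a carbonic anhydrase of capillaries, had 1 UMI in EC 3 and 695 in EC 2, a ratio of 412 with a counting interval of 73.7 to 1.63e+04.

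Gene lists are described by how many of their tested members were called higher and lower in EC 3, to be read against the shares over all genes given above, and by their median fold beside that of all 10488 genes, which was 0.05 against the mean of the others, -0.03 against EC 1 and -0.01 against EC 2. Of 17 lymphatic identity genes, 16 were called higher against the mean of the others, 15 against EC 1 and 14 against EC 2, and none lower in any, with medians of 5.86, 5.62 and 5.97 (5.94 against EC 2 with genes at 0 UMIs set at the limit that 3 counts give). Several of these genes are the markers by which such cells are named. The lists also share members, such as Flt4, Nrp2 and Sox18 in lymphatic identity and VEGF-C signalling, so their counts are not separate. Among the transcription factors of the list, Tbx1 had 155 and 154 CPM in EC 3, 59.3 and 55.5 CPM in EC 1 and 5.92 and 3.36 CPM in EC 2. Maf had 986 and 373 CPM in EC 3 and was exceeded by Mono 1 with 1233 and 1320 CPM (-1.42). Sox18, a factor upstream of Prox1, had 85.4 and 160 CPM in EC 3, against 98.9 and 183 CPM in EC 1 and 47.4 and 245 CPM in EC 2, and was not called against either.

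Among surface and secreted members, Flt4 had 404 and 222 CPM in EC 3, 13.2 and 12.0 CPM in EC 1 and 5.92 and 25.2 CPM in EC 2. Pdpn had 225 and 154 CPM in EC 3 and was nearest in Fibro 2 with 129 and 84.3 CPM (log2 fold 0.64 ± 0.22, called). Fxyd6, a sodium pump regulator, had 1157 and 882 CPM in EC 3, 109 and 145 CPM in EC 1 and 5.92 and 13.4 CPM in EC 2. Fgl2, a fibrinogen-like protein, had 2321 and 980 CPM in EC 3, 117 and 112 CPM in EC 1 and 47.4 and 6.72 CPM in EC 2. A UMI of Fgl2 was seen in 77.7% of EC 3 cells and in 75.3% of VSMC. Rspo1 had 0 UMIs in EC 3. Of 7 initial capillary genes all 7 were called higher than EC 1 and 5 than EC 2 (medians 6.71 and 6.94, or 6.55 and 5.91 with genes at 0 set at that limit). Piezo2, a mechanosensitive channel, was among them, with 109 and 49.3 CPM in EC 3, 1.65 and 0 CPM in EC 1 and 0 and 3.36 CPM in EC 2.

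The 14 collector and valve genes were mixed. Against EC 1, 5 were called higher and 4 lower (median 0.23), and against EC 2, 7 higher and 1 lower (1.23). Foxc2 had 85.4 and 114 CPM in EC 3, 89.0 and 63.5 CPM in EC 1 and 0 and 3.36 CPM in EC 2, so it was called against EC 2 (5.20 ± 0.61) and not against EC 1. Gja4 was lower than in EC 1 (101 and 176 CPM in EC 3, 481 and 466 CPM in EC 1). Gja1, connexin 43, was higher (171 and 102 CPM in EC 3, 16.5 and 5.35 CPM in EC 1). Nfatc1, a valve transcription factor, was higher than both (1.54 ± 0.35 and 1.47 ± 0.40). Itga9, the integrin that binds fibronectin in valve leaflets, was higher than EC 2 (2.76 ± 0.34) and not called against EC 1 (0.18 ± 0.21). Its ligand Fn1 was lower than EC 1 (-1.83 ± 0.23) and higher than EC 2 (0.99 ± 0.30).

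Of 16 genes of VEGF-C and lymphangiogenic signalling, 8 were higher and 3 lower than EC 1 (median 2.26, or 1.78 with genes at 0 set at the limit) and 7 higher and 0 lower than EC 2 (0.51, or 0.21). The ligand Vegfc itself was low in EC 3, with 0 and 15.4 CPM, against 39.6 and 32.8 CPM in EC 1 (-1.83 ± 0.60). Adm had 210 and 317 CPM in EC 3, 3.30 and 4.68 CPM in EC 1 and 35.5 and 20.1 CPM in EC 2, and its receptor Calcrl had 311 and 404 CPM in EC 3, 84.1 and 101 CPM in EC 1 and 29.6 and 58.8 CPM in EC 2. Angpt2, a ligand of the receptor Tek that is needed for lymphatic maturation, had 101 and 89.4 CPM in EC 3, 6.59 and 9.36 CPM in EC 1 and 47.4 and 13.4 CPM in EC 2. Tek was lower than EC 1 (-1.69 ± 0.20).

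Of 20 genes of leukocyte traffic, 6 were higher and 2 lower than EC 1 (median 0.17), and 10 higher and 7 lower than EC 2 (0.97). Beside Ccl21a, the chemokine scavenger Ackr2 (62.1 and 52.4 CPM in EC 3, 1.65 and 0 CPM in EC 1), the sphingosine-1-phosphate transporter Spns2 (77.6 and 80.1 CPM in EC 3, 8.24 and 8.69 CPM in EC 1), Il7 and Sema3a, which guides dendritic cells and valve cells, were higher than both endothelial populations. Cxcl12, a chemokine for CXCR4, was lower than EC 2, with 31.1 and 74.0 CPM in EC 3 and 1054 and 762 CPM in EC 2 (-3.88 ± 0.33). Stab1, a scavenger receptor, had 660 and 348 CPM in EC 3 and 675 and 741 CPM in Mono 1, and was called lower in EC 3 than in Mono 1.

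Of 16 venous genes, 9 were higher and 4 lower than EC 1 (median 1.62, or 1.15 with genes at 0 set at the limit), and 9 higher and 1 lower than EC 2 (1.17). This list holds Lrg1, a marker of the label. It shares Nrp2 with the lymphatic identity list and Plvap with the capillary list, so its counts are not separate from theirs. Nr2f2 had 621 and 444 CPM in EC 3, 6.59 and 10.0 CPM in EC 1 and 88.8 and 67.2 CPM in EC 2. Emcn, the sialomucin endomucin, had 520 and 660 CPM in EC 3, 109 and 136 CPM in EC 1 and 474 and 549 CPM in EC 2. Selp and Vcam1 were lower than EC 1. Of 18 arterial genes, none was higher and 13 were lower than EC 1 (-1.53, or -1.80), and 4 were higher and 7 lower than EC 2 (-0.88, or -0.52). Sox17 had 0 and 15.4 CPM in EC 3, 170 and 235 CPM in EC 1 and 320 and 478 CPM in EC 2, and Bmx, an arterial kinase, had 77.6 and 70.9 CPM in EC 3 and 669 and 481 CPM in EC 1. Of 11 capillary genes, 6 were higher and 0 lower than EC 1 (2.46, or 2.52), and 1, Plvap, was higher and 9 were lower than EC 2 (-3.50).

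**Figure D4:**
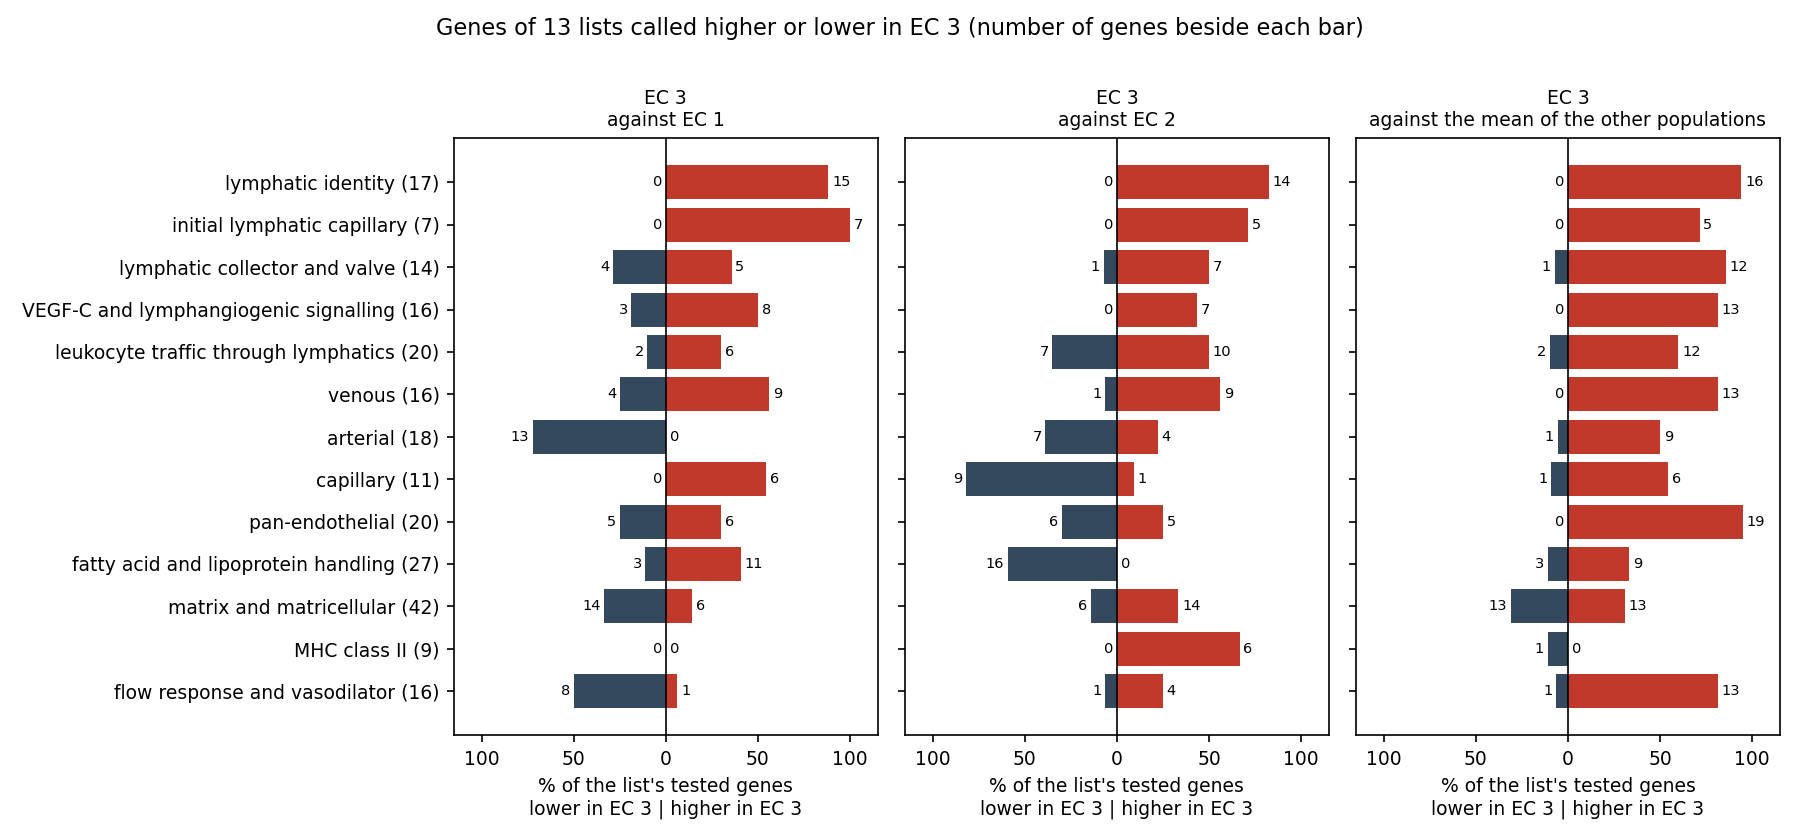
Share of the tested genes of each of 13 lists called higher (right, red) or lower (left, dark) in EC 3 against EC 1, EC 2 and the mean of the other 9 populations, with the numbers of genes beside the bars. Lymphatic identity genes are higher in all 3 comparisons (15 and 14 of 17 against EC 1 and EC 2), arterial genes are lower against EC 1 (13 of 18) and capillary genes lower against EC 2 (9 of 11).

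Of 27 genes of fatty acid and lipoprotein handling, 11 were higher and 3 lower than EC 1 (median 0.39), and 0 higher and 16 lower than EC 2 (-1.32, or -2.34). Fabp4 had 3167 and 4697 CPM in EC 3, 178 and 320 CPM in EC 1 and 30951 and 35663 CPM in EC 2, and within EC 3 it lay mostly in the Vwf cells (8688 CPM, against 284 CPM in Ccl21a cells). Gpihbp1, which anchors lipoprotein lipase to the capillary wall, had 551 and 361 CPM in EC 3, 11.5 and 10.0 CPM in EC 1 and 2829 and 4278 CPM in EC 2. Unlike Fabp4, it lay mostly in the Ccl21a cells (985 CPM, against 43.5 CPM in Vwf cells). Of 9 genes of MHC class II, 6 were higher than EC 2 and 0 lower (2.71, or 3.05), and none was called against EC 1. H2-Ab1 had 279 and 287 CPM in EC 3, 155 and 325 CPM in EC 1 and 112 and 28.5 CPM in EC 2. Within EC 3, H2-Ab1 lay mostly in the Vwf cells (571 CPM), with 22.3 CPM in Ccl21a cells, which is below EC 2. H2-Aa had 484 CPM in Vwf cells and 44.5 CPM in Ccl21a cells, and H2-DMb1 had 24 and 0 UMIs. Of 16 interferon response genes, 1 was higher than EC 1 and 4 lower than EC 2, among them Rsad2 (7.76 and 3.08 CPM in EC 3, 361 and 410 CPM in EC 2).

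Of 42 matrix genes, 6 were higher and 14 lower than EC 1 (median -0.57), and 14 higher and 6 lower than EC 2 (0.02). Elastin, Eln, had 272 and 555 CPM in EC 3 and 1642 and 2314 CPM in EC 1. Mgp had 2507 and 4007 CPM in EC 3, 10830 and 15212 CPM in EC 1 and 1711 and 1027 CPM in EC 2. The laminin chain Lama4 was higher than both (2.76 ± 0.31 and 1.72 ± 0.32). Of 19 junction genes, 5 were higher and 5 lower than each of EC 1 and EC 2. Cldn5 was higher than both (1.17 ± 0.25 and 1.92 ± 0.26). Of 20 pan-endothelial genes, 19 were higher than the mean of the others (median 4.58), 6 were higher and 5 lower than EC 1, and 5 higher and 6 lower than EC 2. Pecam1 was lower than EC 1 (1056 and 1353 CPM in EC 3, 3256 and 3471 CPM in EC 1) and higher than EC 2 (598 and 752 CPM in EC 2). Within EC 3, Pecam1 had 473 CPM in Ccl21a cells, which is below EC 2, 2109 CPM in Vwf cells and 808 CPM in the others.

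Of 20 guidance genes, 7 were higher and 6 lower than EC 1, and 5 higher and 4 lower than EC 2. Nrp2 was higher than EC 2 too (0.81 ± 0.20), while its relative Nrp1, with 54.3 and 142 CPM in EC 3, was lower than EC 1 (518 and 425 CPM) and EC 2 (710 and 774 CPM). Of 18 genes of BMP and TGF beta signalling, 6 were higher and 7 lower than EC 1, and 7 higher and 3 lower than EC 2. Bmp4 was lower than EC 1 (15.5 and 117 CPM in EC 3, 602 and 452 CPM in EC 1), and the receptor Tgfbr2 was higher than both (1.72 ± 0.24 and 1.41 ± 0.26). Of 16 genes of the flow response, 1 was higher and 8 lower than EC 1, and 4 higher and 1 lower than EC 2. Klf2, the flow-induced factor, had 2484 and 1590 CPM in EC 3, 2265 and 1457 CPM in EC 1 and 1657 and 1560 CPM in EC 2, and was called in neither. Of 17 immediate early genes, 2 were higher and 1 lower than EC 1, and 0 higher and 7 lower than EC 2. None of 13 cell cycle genes was called in the 3 comparisons.

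Summed markers of other cells were lower in EC 3 than in the populations they mark. Smooth muscle markers (Acta2, Myh11, Tagln, Cnn1) summed to 1428 and 660 CPM in EC 3, against 1886 and 1126 CPM in EC 1, 3344 and 952 CPM in EC 2 and 32394 and 29671 CPM in VSMC. Fibroblast markers summed to 497 and 777 CPM in EC 3, with Pdgfra at 0, against 607 and 615 CPM in EC 1 and 1308 and 742 CPM in EC 2. Macrophage markers, of interest because Mono 1 shares Lyve1, Maf and Stab1, summed to 179 and 64.7 CPM in EC 3, 64.3 and 52.8 CPM in EC 1 and 16453 and 15417 CPM in Mono 1. At least 2 UMIs of the smooth muscle markers were seen in 74 of 94 EC 3 cells, of the fibroblast markers in 57, with up to 103 in 1 cell, and of the macrophage markers in 2. The part of these UMIs in the results was not tested beyond leaving out the cells named below. Pericyte markers summed to 116 and 43.2 CPM in EC 3, against 971 and 688 CPM in EC 2. T and NK markers (0 and 9.25 CPM, Nkg7 at 0), B cell markers (15.5 and 3.08 CPM, Cd79b and Ms4a1 at 0), adipocyte markers (0 and 12.3 CPM) and Schwann cell markers (0 and 6.16 CPM, Sox10 at 0) were close to 0. Haemoglobin gave 2818 and 1347 CPM in EC 3, against 11838 and 4326 CPM in EC 1 and 2906 and 16333 CPM in EC 2.

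By the longer lists of other cell types, none of 9 pericyte genes was called higher in any comparison and 5 were lower than EC 2. Of 9 smooth muscle genes 0 were higher and 1 and 3 lower than EC 1 and EC 2, and of 12 fibroblast genes 0 were higher and 2 lower than each. Of 14 macrophage genes 1 was higher than each, of 10 dendritic genes 1 was higher than each and 1 lower than EC 2, and of 7 T and NK genes 1 was higher than EC 1. Of 5 adipocyte genes 4 were lower than EC 2, and of 5 red cell genes 4 were lower than EC 1 and 5 lower than EC 2. None of 4 B cell, 8 Schwann cell and 1 platelet genes was called. Over all genes, 5.64% were called higher and 5.97% lower than EC 1, and 6.17% higher and 5.52% lower than EC 2, so 1 gene of such a list is near that share. Of the EC 3 cells, 7 had over 5000 CPM of another type's markers, 6 of them in library 1 and 1 in library 2. Without them the counts were 1542, 1213 and 1220 genes in the 3 comparisons.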

How the data were processed

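The 2 droplet libraries of mouse aorta (1 group) were analysed. The authors deposited a matrix of raw UMI counts for 16971 genes in 5451 cells and a table that names each cell's population. The submitters' processing notes list Cell Ranger 2.1. The genome build and cell filters are not given in the sources used here. Members and gene lists were chosen with earlier results of these data known.

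UMIs were summed per library and population (at least 10 cells, 20 sums) and fitted with edgeR 4.0.16 in R 4.3.3 (TMM, filterByExpr, library as block, quasi-likelihood test, Benjamini-Hochberg over 10488 genes, adjusted p under 0.05), a procedure tested on simulated data. The labels do not say that the libraries are separate animals. The p-values measure the spread left between these libraries after the library term, pooled over the populations, and this spread may be technical. The library sums of all populations pair by construction, since each library gave all of them.

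UMIs were also divided at random, clustered on 1 part (scanpy 1.11.5, Leiden resolution 0.8, 20 components) and read from the other, with sums of at least 5 cells. Scrublet marked 1 EC 3 cell as a doublet, and marked cells were kept except in an alternative. Alternatives were RLE factors, no filter, no block, DESeq2 1.42.0, only the populations compared, thinning to 1300 UMIs per cell, doublets left out, the divided UMIs, each library left out and, chosen after seeing the data, cells rich in other markers left out; the comparison of 2 EC 3 clusters was also chosen then.

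Named were the 5 markers, members of the lymphatic lists, the 10 largest folds each way among called genes that reached 50 UMIs over the compared populations and the same direction in each library, the 20 genes with at least 50 UMIs in EC 3 and the largest margin above every population, and members of the other lists with large folds. Genes such as Htr2b, Il7, Car4 and those of single-cell sets were chosen after their values were seen. A few genes that the rule takes are not reported here.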

Additional observations from a re-analysis of the deposited data

How the results depend on the processing

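The counts against the mean of the others, EC 1 and EC 2, and above every population, were 1556, 1218, 1226 and 79. Thinning to 1300 UMIs per cell gave 795, 692, 660 and 38 genes; it leaves fewer UMIs and fewer genes to test. The divided UMIs gave 854, 999, 737 and 56 genes with the first EC 3 cluster in place of EC 3. All other alternatives with a test stayed within 1.5 times of these counts. Without the replicate block, the pairing of populations within a library, the counts were 1454, 959, 1034 and 62, and Cox7a1 and Lyz1 lost their calls against the mean of the others. DESeq2 gave 1646, 1099, 1092 and 54 genes and took the calls of 8 results on named genes, which are Prox1 in all 3 comparisons, Cldn11 against EC 1 and EC 2, Cox7a1, Cxcl9 and Tmem182; the cause was not tested. Thinning took 10 and the divided UMIs 11 such calls. Leaving out 1 library leaves no residual degrees of freedom, so only folds within the other library were computed, from log2 CPM with a prior count of 2. Without library 1, 60 of 75 differed from the fold of the fit by more than the spread between libraries. Without library 2, 59 did, and 0 changed sign in either case. The way the fold is estimated changed as well, most for genes near 0 UMIs, so these counts do not measure dependence on 1 library. None of the 75 results recomputed for single genes (the markers, the largest folds and the largest margins) changed direction; other genes in the text were not recomputed. Depth limits genes with few UMIs, such as Prox1 with 75 in EC 3, and the second EC 3 cluster has 6 cells in library 1.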
